A study of Mus musculus with 10 samples.

Results

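Class I molecules of the major histocompatibility complex (MHC) were followed at the RNA level in Ly6C-high monocytes of the spleen. The genes described are the classical heavy chains H2-K1 and H2-D1, the light chain B2m (beta-2 microglobulin), the Qa-region heavy chains H2-Q4, H2-Q6 and H2-Q7 and the Tla-region heavy chains H2-T22, H2-T23 and H2-T24. They were taken by gene symbol, without regard to their levels, and are 9 of the 24421 symbols common to all 10 gene tables. H2-Q6 was listed at 0 in every library, so 8 of the 9 passed the filter on low values. The lead pattern, after scaling to the median gene, was a split among the heavy chains. In Foxp3DTR mice after myocardial infarction (MI), the RNA of H2-Q4, H2-Q7 and H2-T22 lay above that of every WT library after MI, at 1.60-fold, 1.70-fold and 1.54-fold. The classical chains H2-K1 and H2-D1 each stood at 1.08-fold and overlapped between these groups, which they did not as deposited (1.27-fold and 1.28-fold by the group means). None of the 8 genes tested passed the adjusted threshold of 0.05 in limma, a linear model fitted over all genes.

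Class I molecules sit on nearly every nucleated cell and consist of a polymorphic heavy chain, the shared light chain beta-2 microglobulin and a short peptide. Classical chains present peptides from inside the cell to CD8+ T cells, and most non-classical chains serve narrower tasks, such as the display of leader peptides by Qa-1 to receptors of natural killer (NK) cells. Transcription of many of these genes rises under interferons through factors of the IRF family and through the transactivator NLRC5, which acts with the RFX and NF-Y factors at the proximal promoter. Monocytes carry class I at rest and raise it under interferon-gamma.

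RNA was sequenced from cells sorted on day 5 after surgery, in 10 libraries of 3 groups. The groups were WT (C57BL/6) mice after sham surgery, in which the chest was opened and the coronary artery left untied (WT sham, n = 3), WT mice after permanent ligation of the left coronary artery's anterior descending branch (WT MI, n = 3) and Foxp3DTR mice after the same ligation (Foxp3DTR MI, n = 4). Male mice of 8 to 10 weeks were used. In Foxp3DTR mice the Foxp3 promoter drives a human receptor for diphtheria toxin (DTX), and the toxin then kills Foxp3+ regulatory T cells (Tregs). Ablation used 500 ng DTX on day 2 and on day 1 before surgery and 250 ng on day 2 after it. Foxp3+ cells were fewer after this protocol in the study, in the spleen too, but not absent. The study sorted monocytes from toxin-treated WT mice too, and its discussion sets the Foxp3DTR profile against that of such mice. Whether the WT MI libraries are those is not in the labels, and toxin, genotype and Treg loss cannot be told apart here. All mice received buprenorphine. After magnetic removal of T and B cells the sort took cells with high Ly6C that were positive for CD115, F4/80 and CD11b and negative for Ly6G, and 20 to 50 pg of RNA entered each library. The labels only number the replicates, but the paper counts this experiment in animals, so each library was taken as 1 mouse. The p-values measure the spread between these libraries. The paper's heatmap of Foxp3DTR and WT gives 4 animals per group, whereas WT MI has 3 libraries here, numbered 2 to 4.

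Depth, worked out from the ratio of coverage to FPKM in the tables, ran from 3.13 to 8.40 M reads (M, 1e6) of 50 bases, lowest in library 2 of WT sham. All 8 monocyte markers listed for the check of the sort (Ly6c2, Ccr2, Csf1r, Itgam, Adgre1, Lyz2, Fn1 and Cd14) were above 0 in each group, with a summed level of 24382 to 32896 TPM (transcripts per 1e6 transcripts) in Foxp3DTR MI and of 36630 to 48274 TPM in both WT groups. As deposited, Lyz2 was lower in every Foxp3DTR library than in every WT MI library, and 4 of the 8 overlapped. Also as deposited, Ly6c2 (3667 to 4757 TPM against 1985 to 2689 TPM in WT MI), Ccr2 and Itgam were higher without overlap. The margin of Ccr2 was narrow, with a lowest Foxp3DTR value of 1353 TPM against a highest WT MI value of 1329 TPM. Markers were not scaled. The 11 neutrophil markers summed to 1296 to 2659 TPM in Foxp3DTR MI, 169 to 472 TPM in WT MI and 346 to 1406 TPM in WT sham. The 11 T cell markers with an entry summed to 39.9 to 159 TPM in Foxp3DTR MI against 8.998 to 13.3 TPM in WT MI, and the 9 NK cell markers to 90.9 to 151 TPM against 26.0 to 69.0 TPM. The 5 plasma cell markers summed to 501 to 595 TPM in Foxp3DTR MI, 336 to 423 TPM in WT MI and 313 to 691 TPM in WT sham. Taken singly and as deposited, some markers were higher in all Foxp3DTR libraries than in all WT MI libraries. These were 8 of the 11 neutrophil, 10 of the 11 T cell and 4 of the 9 NK cell markers. Of the 5 plasma cell markers, 2 (Jchain and Mzb1) were so. Of all genes tested, 21.7% were higher in this way. The NK cell markers Ncr1 and Klrb1c overlapped. Library 3 of WT sham stood apart from the other sham libraries, with 184 TPM of T cell markers, 143 TPM of NK cell markers and 1406 TPM of neutrophil markers. T and NK cells carry class I as well, and the part of these cells in the class I levels was not tested. In bulk samples, more cells of another type and more RNA per cell cannot be told apart.

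The heavy chain genes lie together in the MHC on chromosome 17 and B2m alone on chromosome 2. Coordinates are those of mm10, as the gene tables give them. The classical genes span chr17:33996012-34000333 on the minus strand (H2-K1) and chr17:35263094-35267497 on the plus strand (H2-D1). The Qa genes follow on the plus strand, H2-Q4 at chr17:35379617-35384674, H2-Q6 at chr17:35424877-35428361 and H2-Q7 at chr17:35439155-35443773. The Tla genes lie on the minus strand, H2-T24 at chr17:36005695-36020560, H2-T23 at chr17:36029977-36032701 and H2-T22 at chr17:36038409-36042702. B2m spans chr2:122147687-122153082 on the plus strand.

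The proximal promoters of these genes are shown so that the known control motifs can be read side by side for chains that separated the groups and chains that did not. Each line gives the 250 bases before the RefSeq start (build GRCm38.p6), read 5′ to 3′ on the gene's strand, for the classical chains, the light chain and the chains H2-Q4, H2-Q7 and H2-T22. Capitals mark matches to the letters searched on both strands, which were TTTCNNTTC and TTTCNNTTT (2 spellings of the interferon-stimulated response element), GGGGATTCC (the kB motif of enhancer A), TGACGC (core of the X2 box), CCAAT (the Y box, which reads ATTGG on the other strand) and TTCNNNGAA (the core of the gamma-activated site). H2-K1 has a pair of RefSeq starts, of which the upstream one is shown.
H2-K1, chr17:34000348-34000597, strand -: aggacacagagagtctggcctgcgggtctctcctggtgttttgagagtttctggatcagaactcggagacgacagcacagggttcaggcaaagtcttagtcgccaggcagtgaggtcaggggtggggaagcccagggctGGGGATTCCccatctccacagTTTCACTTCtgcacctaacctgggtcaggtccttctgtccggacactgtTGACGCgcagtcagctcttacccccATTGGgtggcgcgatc
H2-D1, chr17:35262844-35263093, strand +: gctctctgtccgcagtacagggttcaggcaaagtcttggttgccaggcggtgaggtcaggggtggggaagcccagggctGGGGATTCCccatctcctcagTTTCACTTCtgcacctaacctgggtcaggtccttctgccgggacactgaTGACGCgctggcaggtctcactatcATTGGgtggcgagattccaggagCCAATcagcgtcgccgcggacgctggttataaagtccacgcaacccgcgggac
B2m, chr2:122147437-122147686, strand +: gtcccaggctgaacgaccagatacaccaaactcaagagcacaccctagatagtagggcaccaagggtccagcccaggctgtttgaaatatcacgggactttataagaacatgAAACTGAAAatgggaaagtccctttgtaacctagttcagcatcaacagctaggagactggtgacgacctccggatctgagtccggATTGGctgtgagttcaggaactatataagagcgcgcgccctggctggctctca
H2-Q4, chr17:35379367-35379616, strand +: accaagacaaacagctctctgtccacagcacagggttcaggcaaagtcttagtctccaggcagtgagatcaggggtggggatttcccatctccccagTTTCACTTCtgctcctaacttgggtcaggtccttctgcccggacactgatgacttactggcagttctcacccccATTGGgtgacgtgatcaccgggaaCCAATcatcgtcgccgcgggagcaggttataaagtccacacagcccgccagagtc
H2-Q7, chr17:35438905-35439154, strand +: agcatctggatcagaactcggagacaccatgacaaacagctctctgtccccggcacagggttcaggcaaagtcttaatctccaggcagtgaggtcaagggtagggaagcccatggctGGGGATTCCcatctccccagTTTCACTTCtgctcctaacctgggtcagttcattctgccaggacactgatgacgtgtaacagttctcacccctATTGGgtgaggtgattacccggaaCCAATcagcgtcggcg
H2-T22, chr17:36042743-36042992, strand -: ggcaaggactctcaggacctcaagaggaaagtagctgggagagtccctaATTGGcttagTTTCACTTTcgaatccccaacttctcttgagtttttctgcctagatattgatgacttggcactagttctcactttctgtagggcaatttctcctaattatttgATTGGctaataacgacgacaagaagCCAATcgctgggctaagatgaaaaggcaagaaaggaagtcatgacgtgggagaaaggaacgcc

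Of the 9 genes, 8 had a promoter in the table, the exception being H2-T24. TTTCNNTTC was found in 5 of the 8 (H2-K1, H2-D1, H2-Q4, H2-Q6 and H2-Q7), each time as TTTCACTTC, and in 6.31% of all 32851 promoters of this length. The other 3 (B2m, H2-T22 and H2-T23) held TTTCNNTTT, a spelling added after the sequences had been seen, which 9.37% of all promoters hold. The kB letters GGGGATTCC were in 4 of the 8 (H2-K1, H2-D1, H2-Q6 and H2-Q7) against 0.213% of all promoters, and TGACGC was in H2-K1 and H2-D1 against 6.12%. CCAAT was in all 8 and in 33.9% of all promoters. TTCNNNGAA was in 0 of the 8 windows, with 7.02% over all promoters. TGACGC was absent from H2-Q4, H2-Q7 and H2-T22, and also from B2m and H2-T23, which after scaling overlapped between Foxp3DTR MI and WT MI as H2-K1 and H2-D1 did. Only these exact letters were searched, so the absence is of this spelling alone. H2-Q7 reads tgacgt at the place where H2-D1 reads TGACGC. H2-Q7 shares the kB letters with H2-K1 and H2-D1, H2-Q4 holds the first response element spelling without these exact kB letters, and H2-T22 holds neither. Ahead of its response element H2-Q4 reads ggggatttccc, a like spelling that was not searched.

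The light chain was by far the most abundant class I RNA, ranking between 6th and 10th of all genes by TPM. B2m stood at 9080.3, 8527 and 8320.1 TPM in WT sham, at 8141, 7204 and 6522 TPM in WT MI and at 9933, 10215, 10626 and 9689 TPM in Foxp3DTR MI. As deposited, the 4 Foxp3DTR libraries were the highest and the 3 WT MI libraries the lowest, with no overlap. All 9 genes together took 0.889 to 1.05% of the TPM of a library in WT MI, 1.101 to 1.18% in WT sham and 1.298 to 1.42% in Foxp3DTR MI. TPM is a share of a fixed total, and the 10 most abundant RNAs took 24.8 to 30.3% of it in WT MI and 17.3 to 23.03% in Foxp3DTR MI. Without scaling the median of all genes was shifted by 0.22 on the log2 scale between Foxp3DTR MI and WT MI, by -0.17 between WT MI and WT sham and by 0.05 between Foxp3DTR MI and WT sham. For the tests each library was brought to the same median ratio to the geometric mean of all libraries, so that changes are relative to the median gene. After this scaling B2m ran from 8806 to 10316 TPM in Foxp3DTR MI and from 7663 to 8925 TPM in WT MI, and the groups overlapped.

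Among the heavy chains, the classical pair led in every group, and TPM is per length, so that these levels compare between genes. Mean levels in WT sham were 1181 ± 93.4 TPM for H2-K1 and 958 ± 186 TPM for H2-D1 (SD, n = 3), whose libraries overlapped. H2-T23 came next at 197 ± 22.1 TPM, then H2-T24 at 147 ± 22.3, H2-Q4 at 103 ± 26.6, H2-T22 at 72.5 ± 27.3 and H2-Q7 at 54.1 ± 30.0 TPM (SD, n = 3). From H2-T24 downwards each gene overlapped the next one in the sham libraries, so that the order of these 4 is not resolved there. In WT MI the order by mean was the same, H2-K1 lay above H2-D1 in each library, and the unresolved neighbours were H2-T23 with H2-T24 and H2-T24 with H2-Q4. In Foxp3DTR MI, H2-Q4 at 173 ± 11.98 TPM stood beside H2-T24 at 167 ± 26.9 TPM (SD, n = 4), and H2-Q4 with H2-T24 and H2-T24 with H2-T22 were the neighbours that overlapped.

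**Figure D1:**
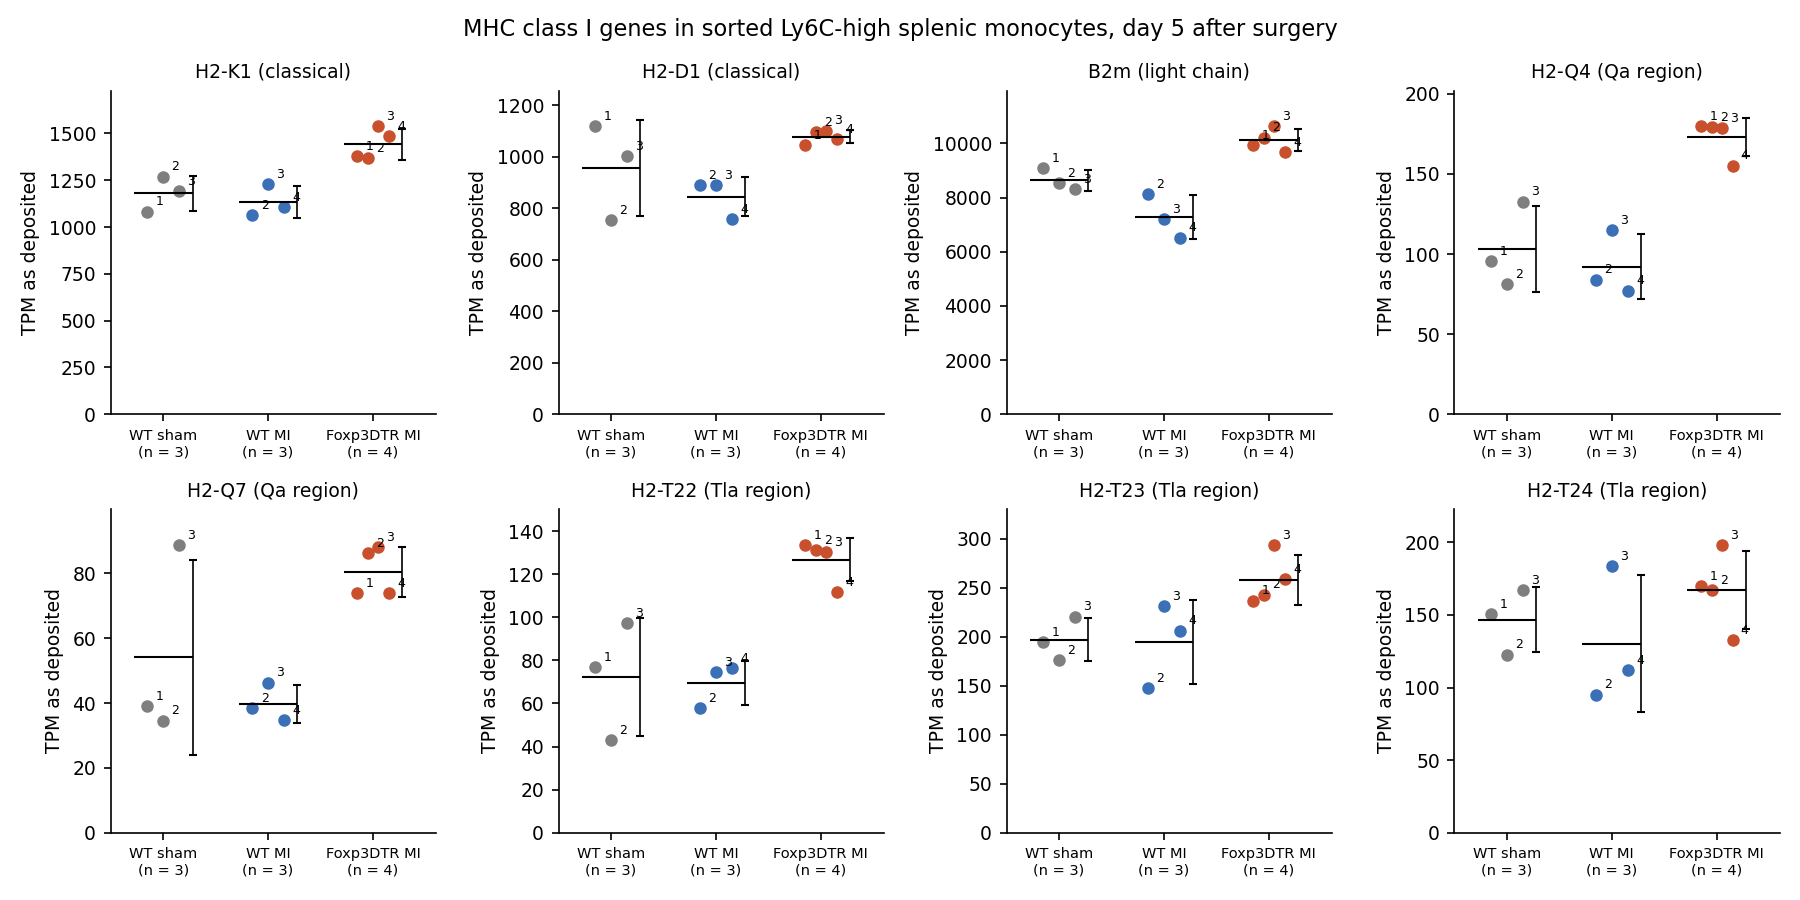
Level of each class I gene in each library, in TPM as deposited, for WT sham, WT MI and Foxp3DTR MI. Points are libraries with their replicate numbers, horizontal lines are group means and error bars are SD; H2-Q4 and H2-T22 show all 4 Foxp3DTR libraries above every WT library, and library 3 of WT sham is high for H2-Q7.

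H2-Q6 has no measured level of its own in these tables. Its entry lies inside that of H2-Q8 (chr17:35424847-35428361), a Qa-2 gene, and H2-Q8 carried 19.8 to 72.2 TPM where H2-Q6 was listed at 0 in all 10 libraries. The same held for 3 other entries. H2-Q9 over H2-Q7, H2-T9 over H2-T22 and H2-L over H2-D1 were listed at 0 throughout, so that the values of H2-Q7, H2-T22 and H2-D1 are those of a locus. A930015D03Rik overlaps H2-T23 and H2-T24 on the opposite strand at 3.87 to 19.3 TPM, and Patl2 overlaps B2m at 0 to 0.683 TPM. No source used here gives the strand setting of the quantification, so reads of such pairs cannot be told apart.

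Near-identical copies set a further limit on single heavy chains. Of all 50-base words in the GENCODE transcripts of H2-T22, 53.5% occur in transcripts of other genes too, with H2-T10 alone holding 31.3%. The shares were 36.4% for H2-Q4, 26.5% for H2-Q7, 14.5% for H2-T23, 12.8% for H2-D1, 9.63% for H2-K1, 3.17% for H2-T24 and 0% for B2m. The 3 chains that separated Foxp3DTR MI from WT MI are thus the 3 measured heavy chains with the largest shared fraction. No source used here says how reads of shared words were assigned, and its part in the result was not tested. Some partners, named for the shared words, had values of their own between Foxp3DTR MI and WT MI. H2-T10 had a log2 fold change of 0.51 (limma adjusted p = 0.241), and A930015D03Rik, which holds 26.6% of the words of H2-T22, one of 0.54 (limma adjusted p = 0.371). H2-Q10, which holds 14.0% of the words of H2-Q7, had one of 0.12 (limma adjusted p = 0.678). Gm11131, which holds 15.3% of the words of H2-Q4, was not analysed here.

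The comparison of Foxp3DTR MI with WT MI sets partly Treg-depleted mice against WT mice after the same ligation. Toxin, genotype and Treg loss cannot be told apart in it. The Qa and Tla chains H2-Q4, H2-Q7 and H2-T22 had log2 fold changes of 0.62 to 0.77, and the other 5 genes had 0.11 to 0.23. Under quantile normalization these 3 chains had 0.63 to 0.75, H2-K1 0.33, H2-D1 0.28 and B2m 0.88, so that B2m stood with the 3 chains there. H2-Q4, a Qa-region class I chain, stood at 84.0, 115 and 77.1 TPM in WT MI and at 179.6, 179.4, 178.5 and 155 TPM in Foxp3DTR MI. Every Foxp3DTR library lay above every WT library of both surgeries, whose highest was library 3 of WT sham with 133 TPM. After scaling, the log2 fold change of H2-Q4 was 0.68 ± 0.15 (SE), 1.60-fold with a 95% interval of 1.28 to 2.02, and limma's adjusted p was 0.0568. H2-Q4 ranked 204th of 12938 genes by p. As deposited, the marker sums of neutrophils, T cells, NK cells and plasma cells did not overlap between these groups. These sums were not scaled, and their part in the values of H2-Q4, H2-Q7 and H2-T22 was not tested.

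H2-Q7 encodes a Qa-2 antigen, a class I chain anchored by a lipid or released in soluble form. Its level was 38.3, 46.3 and 34.7 TPM in WT MI and 74.0, 86.2, 88.1 and 73.8 TPM in Foxp3DTR MI, again without overlap. The log2 fold change was 0.77 ± 0.25 (SE), 1.70-fold with a 95% interval of 1.16 to 2.50, at a limma adjusted p of 0.159. H2-T22, which some gamma-delta T cells recognise without a bound peptide, stood at 57.8, 74.6 and 76.2 TPM in WT MI and at 133.5, 131, 130.2 and 112 TPM in Foxp3DTR MI. These libraries did not overlap either. Its log2 fold change was 0.62 ± 0.21 (SE), 1.54-fold with a 95% interval of 1.11 to 2.13, at a limma adjusted p of 0.169.

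The classical chains, the main presenters to CD8+ T cells, had smaller fold changes. H2-K1 stood at 1063, 1227 and 1107 TPM in WT MI and at 1379.9, 1368, 1537 and 1487 TPM in Foxp3DTR MI as deposited. These values do not overlap, but after scaling they ran from 1166 to 1306 TPM and from 1205 to 1583 TPM and did. H2-D1 stood at 889, 889.7 and 757 TPM against 1046, 1095, 1101 and 1069 TPM as deposited, and after scaling at 890.3 to 974 TPM against 927 to 1138 TPM. Their log2 fold changes were equal to the second decimal, 0.11 ± 0.15 (SE) for H2-K1 and 0.11 ± 0.14 (SE) for H2-D1, with 95% intervals of the fold from 0.854 to 1.36 and from 0.866 to 1.35. The point estimates of H2-Q4 and H2-T22 lie above both intervals, but their own intervals overlap both. No difference between chains was tested. On TPM without scaling the log2 fold changes of H2-K1 and H2-D1 were both 0.35.

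B2m had a log2 fold change of 0.23 ± 0.29 (SE) with a limma adjusted p of 0.718. Its interval is wide, from 0.752-fold to 1.84-fold, in a fit that draws the spread of abundant genes from a trend over all genes. With no variance trend the SE of B2m was 0.11 and the adjusted p 0.324, and quantile normalization moved B2m to 0.88 ± 0.25 on the log2 scale (adjusted p of 0.108 in limma). The Tla chain H2-T23, the heavy chain of Qa-1, stood at 147, 231 and 206 TPM in WT MI and at 237, 243, 294 and 259 TPM in Foxp3DTR MI. H2-T24 stood at 95.2, 184 and 112 TPM and at 170.1, 167, 198 and 132 TPM. Library 2 of WT MI was the lowest of that group for both. Their log2 fold changes were 0.18 ± 0.17 (SE) and 0.16 ± 0.19 (SE), with limma adjusted p of 0.604 and 0.711, and both turned to -0.02 and -0.05 when library 2 of WT MI was left out.

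Over the 8 genes tested, 0 were called between Foxp3DTR MI and WT MI in limma at an adjusted p under 0.05, where 1.12% of all 12938 genes tested were called. At an unadjusted p under 0.05 the number was 3, where 17.7% of all genes were. All 8 log2 fold changes were above 0, with a median of 0.21 against 0.00 over all genes. After scaling, 3 of the 8 lay above WT MI in every Foxp3DTR library, where 9.97% of all genes did. As deposited the number was 7 of 8, H2-T24 being the exception, where 21.7% of all genes did. The call on these genes depended on the sham libraries, which enter this comparison through the shared spread, the filter and the scaling. A fit of only the 2 groups compared called 3 of the 8, H2-Q4 at an adjusted p of 0.0168, H2-Q7 at 0.0104 and H2-T22 at 0.026, in a fit that called 583 genes. Leaving out library 3 of WT sham called H2-Q4 and H2-Q7 (422 genes in all), and leaving out library 2 of WT sham called H2-Q4 and H2-T22 (431 genes in all).

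**Figure D2:**
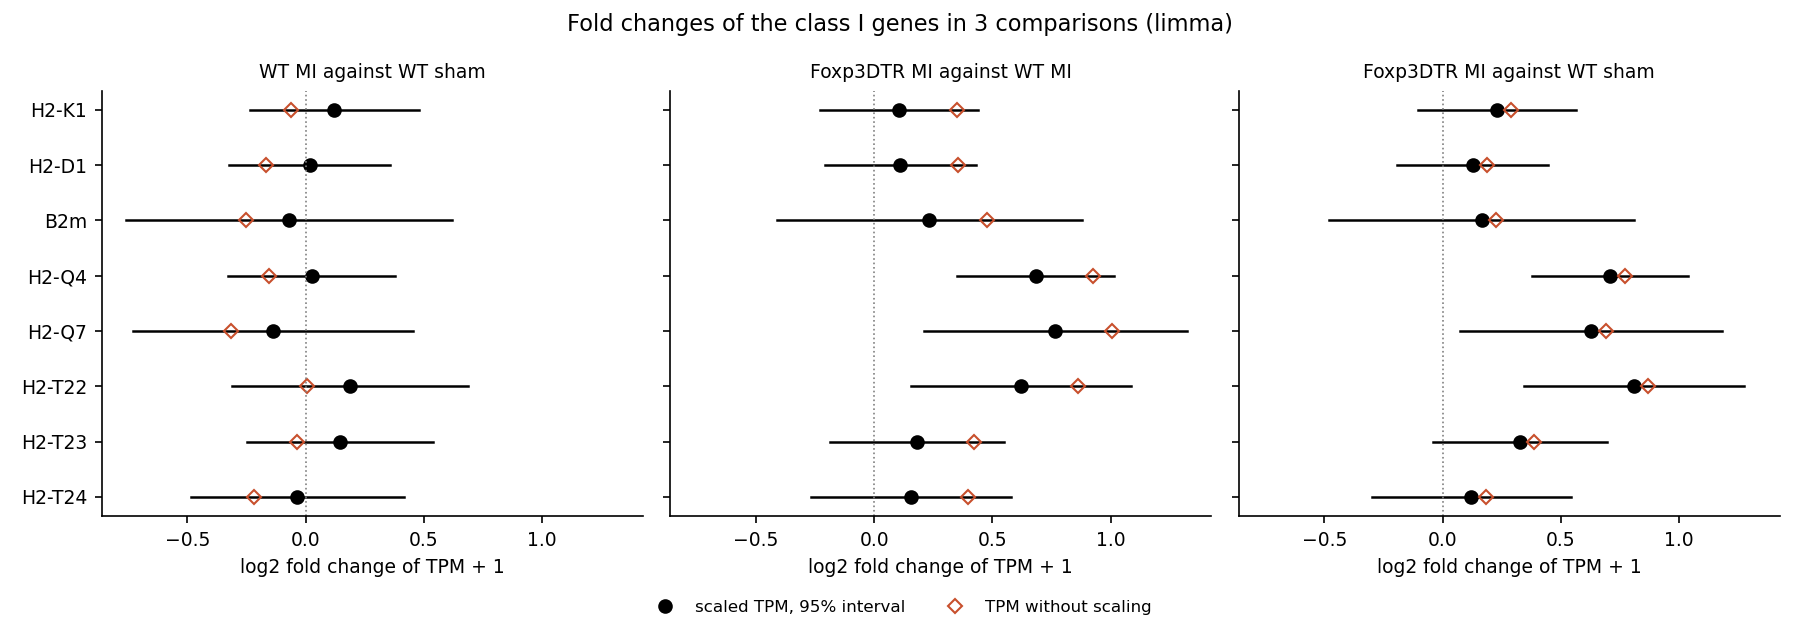
Log2 fold change of TPM + 1 for the 8 class I genes tested, in WT MI against WT sham, Foxp3DTR MI against WT MI and Foxp3DTR MI against WT sham. Filled points with lines are limma estimates on scaled TPM with 95% intervals and open diamonds are estimates on TPM without scaling; in both comparisons with Foxp3DTR MI the intervals of H2-Q4, H2-Q7 and H2-T22 lie above 0, and in WT MI against WT sham every interval spans 0.

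WT mice after infarction were compared with WT mice after sham surgery, and no class I gene was called. The labels do not say whether either group received toxin, so a part of toxin cannot be told apart from surgery. Log2 fold changes of WT MI against WT sham ran from -0.14 for H2-Q7 to 0.19 for H2-T22, and limma adjusted p from 0.967 to 0.997. Of the 8 genes, 0 were called at an adjusted p under 0.05 and 0 at an unadjusted p under 0.05, and of all genes 0% were called, with 600 genes, 4.64%, at an unadjusted p under 0.05. No member lay above the sham libraries in every WT MI library after scaling, against 3.18% of all genes. The widest spread was in H2-Q7, at 39.1, 34.6 and 88.7 TPM in WT sham. Its high value was in library 3, which also held the highest sham value of H2-Q4 (133 TPM against 95.4 and 81.4 TPM) and H2-T22 (97.3 TPM against 77.0 and 43.1 TPM). The intervals leave room for changes of 0.797-fold to 1.3-fold in H2-Q4 and of 0.602-fold to 1.37-fold in H2-Q7. Directions in this comparison turned with the scaling for H2-K1, H2-D1, H2-Q4 and H2-T23, and none is given for them.

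Foxp3DTR MI against WT sham mixes genotype, toxin, Treg loss and surgery, and it shares the Foxp3DTR libraries with the comparison above. H2-T22 had a log2 fold change of 0.81 ± 0.21 (SE, limma adjusted p = 0.109), H2-Q4 one of 0.71 ± 0.15 (SE, adjusted p = 0.0728) and H2-Q7 one of 0.63 ± 0.25 (SE, adjusted p = 0.219). The other 5 genes ran from 0.12 for H2-T24 to 0.33 for H2-T23. Of the 8 genes, 0 were called in limma, where 0.541% of all genes were called, and 3 had an unadjusted p under 0.05, where 18.6% of all genes did. After scaling 4 of the 8 lay above every sham library, against 9.8% of all genes. These were H2-Q4, H2-T22, H2-T23 and B2m, of which H2-T23 (210 TPM against a highest sham value of 209 TPM) and B2m (8806 against 8793 TPM) were separated by a narrow margin. H2-Q7 overlapped through library 3 of WT sham. Without that library H2-Q4, H2-Q7 and H2-T22 were called, with log2 fold changes of 0.88, 1.02 and 1.03 and adjusted p of 0.0090, 0.0042 and 0.0219, in a fit that called 636 genes. With the other sham libraries left out in turn, 0 of the 8 were called.

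A ratio of chains within 1 library does not depend on the scaling, and it sets the non-classical chains against the classical ones directly. The ratios were formed after the levels of these genes were known and carry no test. The summed TPM of H2-K1 and H2-D1 was 3.82 ± 0.66 times that of the non-classical chains in WT sham (SD, n = 3), 3.85 ± 0.70 times in WT MI (SD, n = 3) and 3.14 ± 0.24 times in Foxp3DTR MI (SD, n = 4). The libraries of the groups overlapped, since library 3 of WT sham lay at 3.11 and library 3 of WT MI at 3.25, inside the Foxp3DTR range of 2.97 to 3.49.

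Taken chain by chain, H2-Q4, H2-Q7 and H2-T22 separated Foxp3DTR MI from WT MI, the same chains that their levels had set apart. The share of all genes that separates on this ratio was not computed. H2-Q4 amounted to 4.30, 5.43 and 4.14% of the classical sum in WT MI and to 7.40, 7.28, 6.77 and 6.07% in Foxp3DTR MI, without overlap. In WT sham it amounted to 4.33, 4.02 and 6.05%, the last just under the lowest Foxp3DTR library. H2-T22 stood at 2.96 to 4.09% in WT MI and at 4.37 to 5.50% in Foxp3DTR MI, and H2-Q7 at 1.86 to 2.19% and 2.89 to 3.50%, both without overlap between these groups. Library 3 of WT sham, at 4.43% for H2-T22 and 4.05% for H2-Q7, reached into or above the Foxp3DTR range. H2-T23 and H2-T24 overlapped in all comparisons, with means of 9.84 ± 1.98% and 6.52 ± 1.95% in WT MI (SD, n = 3) and 10.22 ± 0.62% and 6.62 ± 1.01% in Foxp3DTR MI (SD, n = 4).

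The ratio of light chain to heavy chain RNA did not separate the groups. B2m RNA was 3.20 ± 0.30 times all heavy chain RNA in WT sham (SD, n = 3), 2.93 ± 0.44 times in WT MI (SD, n = 3) and 3.04 ± 0.08 times in Foxp3DTR MI (SD, n = 4), and the groups overlapped. H2-K1 was 1.28 ± 0.37, 1.35 ± 0.14 and 1.34 ± 0.07 times H2-D1 in these groups, also overlapping. The low sham value of H2-D1 in library 2 (753 TPM) set the wide spread of that ratio in WT sham.

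**Figure D3:**
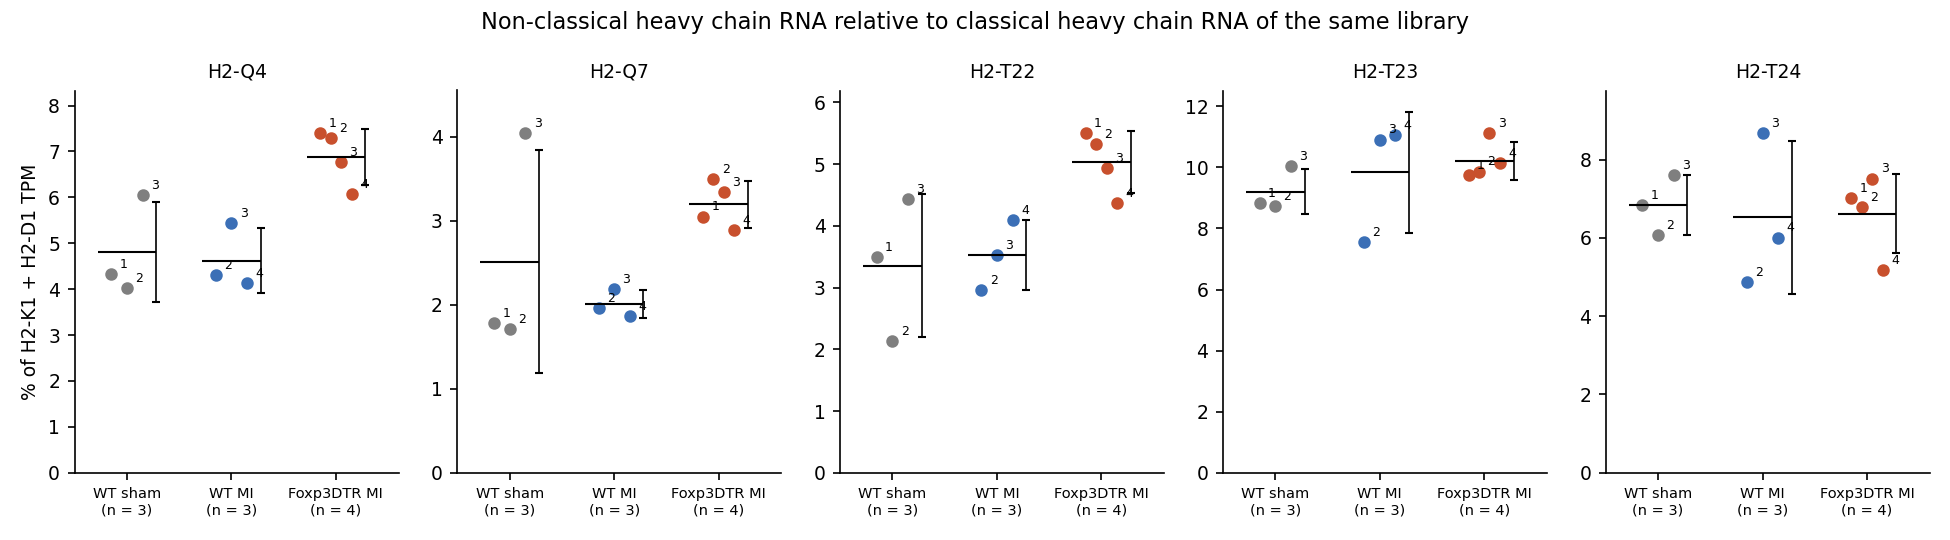
RNA of each measured non-classical heavy chain as a percentage of the summed TPM of H2-K1 and H2-D1 in the same library, by group. Points are libraries with their replicate numbers, lines are means and bars SD; H2-Q4, H2-Q7 and H2-T22 are higher in all 4 Foxp3DTR libraries than in all 3 WT MI libraries, and H2-T23 and H2-T24 overlap.

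Profiles were also compared across the 10 libraries. The measure was the root mean square difference between log2 profiles, each centred on its own mean, so that a small value means a like pattern. Among the genes with small fold changes, B2m was 0.14 from H2-D1 and 0.15 from H2-K1, H2-K1 was 0.16 from H2-T23, and H2-T23 was 0.20 from H2-T24. H2-Q4 was 0.20 from H2-Q7 and 0.21 from H2-T22, and H2-Q7 was 0.27 from H2-T22. H2-K1 lay 0.34 from H2-Q4, 0.42 from H2-T22 and 0.44 from H2-Q7. The genes did not form clean sets, since H2-Q4 was as far from H2-T23 (0.29) as B2m was from H2-T24 (0.29). These distances describe the same levels as above, and the libraries share depth and scaling.

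The genes outside the class I set with the most similar profiles differed between members. Nearest to H2-T22 were Pnp2 at 0.10, Slc12a7 at 0.11, Pnp at 0.12, Arel1 at 0.12 and Nampt at 0.14, where the median over all genes was 0.52. Pnp2 and Pnp are near copies that encode purine nucleoside phosphorylase, and Nampt encodes an enzyme of NAD synthesis. Nearest to H2-T23 were Mnda at 0.06, Ifi204 at 0.08, D17Wsu92e at 0.08, Aldh3b1 at 0.08 and Dapk3 at 0.09 (median 0.36), the first pair belonging to the interferon-inducible Ifi200 family. H2-K1 was nearest to Pira6, Cdk16, Hcfc1, Sidt2 and Inpp5b at 0.08 to 0.09 (median 0.31), and B2m to Zfp429, Srp68, Tpr, Mlf2 and Cnot1 at 0.06 to 0.07 (median 0.30).

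Other class I and class I-like genes gave a mixed picture between Foxp3DTR MI and WT MI. Of 34 on the list 18 were tested, and 0 were called in limma, where 1.12% of all genes were. The log2 fold change was above 0 in 13 and below 0 in 5, with a median of 0.20. After scaling, 7 of the 18 lay above WT MI in every Foxp3DTR library, where 9.97% of all genes did, and 1 lay below. The lowest p belonged to Cd1d2 and Cd1d1, of which Cd1d1 encodes CD1d, the presenter of lipids to NKT cells. Words shared between them were not examined. Cd1d1 stood at 6.72, 9.89 and 1.58 TPM in WT MI and at 25.3, 31.0, 21.7 and 18.6 TPM in Foxp3DTR MI, with a log2 fold change of 1.84 ± 0.50 (SE, limma adjusted p = 0.1001). Cd1d2 had one of 1.61 ± 0.36 (SE, limma adjusted p = 0.061) at levels of 0 to 5.70 TPM. H2-Q8, whose entry covers H2-Q6, stood at 24.8 to 34.7 TPM in WT MI and 45.9 to 72.2 TPM in Foxp3DTR MI, with 0.74 ± 0.27 (SE, limma adjusted p = 0.206), close to the value of H2-Q7. Hfe, a class I-like regulator of iron uptake, had a log2 fold change of -0.88 ± 0.34 (SE, limma adjusted p = 0.214).

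The genes that supply and load class I peptides had higher values in Foxp3DTR MI, none past the threshold. All 13 were tested, 0 were called in limma, and all 13 had log2 fold changes above 0 with a median of 0.65, against 0.21 for the class I chains and 0.00 for all genes. All 13 lay above WT MI in every Foxp3DTR library after scaling, where 9.97% of all genes did. The neutrophil, T cell, NK cell and plasma cell marker sums given above, which are as deposited and not scaled, were higher in the same 4 libraries. Their part in this was not tested. Psmb8, an immunoproteasome subunit, stood at 194, 225 and 188 TPM in WT MI and at 351, 386, 406 and 361 TPM in Foxp3DTR MI, with 0.65 ± 0.14 (SE, limma adjusted p = 0.0516). Calr, the chaperone calreticulin, had 0.80 ± 0.17 (SE, adjusted p = 0.0516), the peptide trimmer Erap1 0.60 ± 0.13 (SE, adjusted p = 0.0526) and the peptide transporter subunit Tap1 0.81 ± 0.17 (SE, adjusted p = 0.0543) in limma. Against WT sham 1 of the 13 was called, Psmb8 with 0.78 ± 0.14 (SE, limma adjusted p = 0.0464), where 0.541% of all genes were called. That call was lost in 14 of 22 alternative settings, with an adjusted p of up to 0.174. All 13 were above 0 with a median of 0.75. In WT MI against WT sham 0 of the 13 were called, 8 were above 0 and the median was 0.05.

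Among the regulators of class I transcription reported here, Jak2 and Socs1 rose. Of 19 tested, 2 rose between Foxp3DTR MI and WT MI in limma, 0 fell, 8 were above 0 and the median was -0.02, where 1.12% of all genes were called. The 2 were the kinase Jak2, which passes on the interferon-gamma signal (0.73 ± 0.08 SE, adjusted p = 0.0151), and its feedback inhibitor Socs1 (2.74 ± 0.37 SE, adjusted p = 0.0153). The call of Jak2 was lost in 2 of 22 alternative settings, without library 2 of WT MI (limma adjusted p = 0.0646) or library 3 of Foxp3DTR MI, and that of Socs1 in 4, without library 2 or 3 of either group (limma adjusted p up to 0.0667). Socs1 stood at 4.93, 6.52 and 4.69 TPM in WT MI and at 34.7, 53.8, 65.5 and 44.6 TPM in Foxp3DTR MI, without overlap. Irf1, which binds interferon response elements, stood at 77.6, 168 and 74.4 TPM and at 298, 312, 470.2 and 282 TPM, with 1.497 ± 0.36 (SE, limma adjusted p = 0.0723). Ifngr1, a chain of the interferon-gamma receptor, had -0.43 ± 0.16 (SE, limma adjusted p = 0.196). Nlrc5, the class I transactivator, named after its values were seen, had 0.63 ± 0.25 (SE, limma adjusted p = 0.224). Against WT sham 1 of the 19 was called, Jak2 with 0.64 ± 0.08 (SE, limma adjusted p = 0.021), a call lost in 7 of 22 alternative settings with an adjusted p of up to 0.0795, where 0.541% of all genes were called, and in WT MI against WT sham 0 were called.

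**Figure D4:**
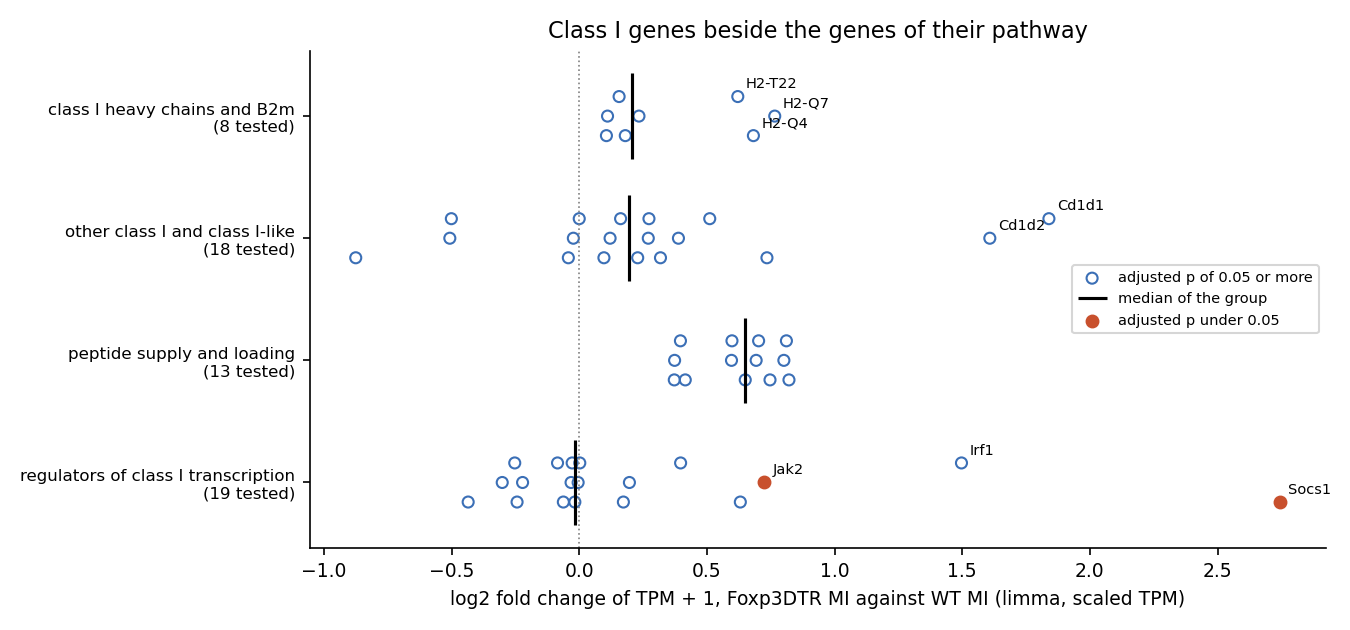
Log2 fold change of TPM + 1 between Foxp3DTR MI and WT MI (limma, scaled TPM) for the 8 class I genes tested and for the genes of 3 pathway lists, 1 circle a gene. Filled circles mark an adjusted p under 0.05 and black lines the median of each group; all 13 peptide supply and loading genes lie above 0 with a median of 0.65, and the class I genes spread from 0.11 to 0.77.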

How the data were processed

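RNA of sorted Ly6C-high splenic monocytes was sequenced in 10 libraries, grouped by the sample labels. The paper describes single-end sequencing of 50 bases, and the tools in the submitters' processing notes are StringTie 1.3.0, STAR 2.5, cutadapt 1.1 and CASAVA 1.4, with build mm 10. The paper adds trimming of adapters and low-quality bases and the GENCODE annotation. No source used here gives StringTie's options. The authors deposited, for each library and gene, the coverage (a signal, read depth per exon base), the FPKM and the TPM, which the authors normalised for length and library size. The paper's own test, DESeq2, needs counts and was not used.

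TPM of rows with the same symbol was summed (24421 symbols) and divided by a median-of-ratios factor. Of these, 12938 reached 1 TPM in 3 or more libraries and were tested, and log2(TPM + 1) was fitted with limma 3.58.1 in R 4.3.3 on all 10 libraries, with a variance trend. Tests were two-sided with Benjamini-Hochberg adjustment over all genes. Fold changes are on the log2(TPM + 1) scale, which understates changes of low genes. The fit was tested on simulated data. The depth of a library came from the ratio of coverage to FPKM, constant within 1% for 84.6 to 84.8% of entries. Since TPM holds no read counts, single values carry no interval, and 0 is reported as listed at 0.

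The genes described, the pathway lists and the marker lists were chosen with earlier results of these data known. The genes named are all 9 class I genes, up to 4 genes of lowest p from each of 3 pathway lists, and for H2-K1, B2m, H2-T22 and H2-T23 the 5 genes nearest in profile. Any other gene is marked where it is named. From the list of regulators 1 gene is not reported here and was left out of its counts. Promoters came from RefSeq (GRCm38.p6) and transcript words from GENCODE on the same assembly. Of 22 alternative settings 21 were planned, and 1, the summing of overlapping entries of a locus, was added after seeing the data. Dendritic cell, B cell and erythroid markers were summed too, at 147 to 257, 9.67 to 30.0 and 5.95 to 221 TPM.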

Additional observations from a re-analysis of the deposited data

Results flagged for a closer look

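In the Foxp3DTR MI group of 4 libraries, 23 values were examined for a library far from the others, and 5 had such a gap. Chance alone gives about 1 such gap in 20 groups. Library 4 was the lowest for H2-Q4 at 155.2 TPM, for H2-T22 at 111.7 TPM and for the peptide trimmer Erap1 at 79.5 TPM, and it had the highest ratio of classical to non-classical chains at 3.49. After scaling, library 4 lay within the range of the other Foxp3DTR libraries for H2-Q4 (165.3 TPM, the others 158.1 to 166.5 TPM) and for H2-T22 (119 TPM, the others 115.5 to 121.5 TPM). Library 3 was the highest for Irf1 at 470.2 TPM. The groups of 3 libraries were too small for this check.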

How the results depend on the processing

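Of 22 alternative settings, the number of the 8 class I genes called between Foxp3DTR MI and WT MI, 0 as reported, was 1 on TPM without scaling, 1 with array weights, 3 in a fit of only the 2 groups compared and 0 to 2 with single libraries left out. Against WT sham it was 0, and 0 to 3 with single libraries left out, and in WT MI against WT sham it was 0 under every setting. The count over all genes between Foxp3DTR MI and WT MI, 145 as reported, ran from 0 (without library 2 of WT MI) to 583 (only the 2 groups compared), and against WT sham, 70 as reported, from 3 (without library 1 of WT sham) to 636 (without library 3 of WT sham). Between Foxp3DTR MI and WT MI the directions of H2-K1, H2-D1, B2m, H2-Q4, H2-Q7 and H2-T22 held under all 22 settings, and the log2 fold change ran from -0.017 to 0.28 for H2-T23 and from -0.049 to 0.40 for H2-T24 with single libraries left out. Against WT sham, H2-D1 ran from -0.0038 to 0.24. In WT MI against WT sham, directions turned on TPM without scaling for H2-K1 (-0.060), H2-D1 (-0.17), H2-Q4 (-0.15) and H2-T23 (-0.035), under quantile normalization for H2-K1 (-0.073), H2-D1 (-0.12) and H2-Q4 (-0.034), and with array weights for H2-D1 (-0.071). With single libraries left out, that comparison gave -0.12 to 0.13 for H2-D1, -0.11 to 0.20 for H2-Q4, -0.36 to 0.25 for H2-Q7, -0.11 to 0.41 for H2-T22 and -0.28 to 0.17 for H2-T24. The causes were not tested. Without H2-Q6 and H2-Q7, the ratio of classical to non-classical chains in Foxp3DTR MI was 3.49, and in WT sham and WT MI 4.19 and 4.18. Summing overlapping entries, added after seeing the data, put H2-Q6 at the values of H2-Q8 and called 0 genes of the set.

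The labels give the groups shared replicate numbers but do not say whether the numbers mark pairs. Little sign of pairing was seen, in a measure on few libraries that does not settle it. Deviations of same-numbered libraries from their group means correlated at -0.19 to 0.19, over 0.1 in 1 of 8 pairs. With the number as a replicate block, 81 genes in place of 145 were called between Foxp3DTR MI and WT MI and 16 in place of 70 against WT sham, 0 of them class I genes, and the direction of H2-T24 in WT MI against WT sham turned (0.0055).

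Libraries of 3.13 to 8.40 M reads from 20 to 50 pg of RNA limit the low chains most, as the mean depth per base of H2-Q7 fell to 1.92 in library 2 of WT sham. Groups of 3 and 4 libraries leave wide intervals, overlapping entries and shared words leave single Qa and Tla chains uncertain, and markers of other cell types and Treg ablation cannot be told apart. RNA does not give the class I protein on the cell surface.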

Other observations

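For H2-Q4, the chain of lowest p, the nearest profiles over the 10 libraries were looked up after its values had been seen. They belonged to Coa5 at a root mean square difference of 0.10, Psmb8 at 0.11, Noc4l at 0.11, Tapbpl at 0.12 and Il2rg at 0.12, where the median over all genes was 0.47. Psmb8, a subunit of the immunoproteasome, and Tapbpl, the peptide editor TAPBPR, both act in the supply or loading of class I peptides, and Il2rg encodes the common cytokine receptor gamma chain. Between Foxp3DTR MI and WT MI, Coa5 had a log2 fold change of 0.72 (limma adjusted p = 0.0248), Tapbpl one of 0.82 (limma adjusted p = 0.0723) and Il2rg one of 0.62 (limma adjusted p = 0.088).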
